A study of Mus musculus with 4 samples.

Results

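The 30 genes described here make, move or sense cholesterol or steer its uptake, and they were picked by symbol from the 24527 gene symbols of the read count table. They comprise 7 enzymes of the mevalonate steps, 11 enzymes of the squalene and sterol ring steps, 4 genes of SREBP2 sensing, 4 genes of the liver X receptor (LXR) arm and 4 genes of sterol transport and storage. Poly(A) RNA was sequenced from 4 mouse samples, each with 1 library, to compare melanoma cells grown in different surroundings. The cultures were of B16F10, a mouse melanoma line, here carrying turbo green fluorescent protein. They were a 2D monoculture of B16F10 alone, a 2D co-culture of B16F10 with NIH/3T3 mouse fibroblasts, and spheroids formed by both lines in hanging drops at a seeding ratio of 1:4. In the methods of the study, fluorescent cells were sorted from the cultures, B16F10 was routinely kept in RPMI and the spheroids were seeded in Dulbecco's modified Eagle medium, both with fetal calf serum. Tumors were grown from B16F10 injected under the skin of both flanks of female C57BL/6 mice aged 1 year, and the age of the spheroids at collection was not given in the sources used here. The genotype label was WT for all 4 samples. The labels call the tumor library snap frozen tissue, whereas the methods speak of sorted tumor cells, and whether the 3 samples named in those methods were pooled into it was not given in the sources used here.

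Each library held between 118896900 and 150028663 reads assigned to genes. Levels are given as read counts scaled to library size (CPM, counts per 1000000 reads) after trimmed mean of M values (TMM) scaling over the 4 libraries. With 1 library per condition there was no test and no replicate error. Intervals are exact binomial 95% intervals, and they cover counting error only. All 30 genes had a mean of at least 1 CPM, as had 12795 genes in all, and 28 of the 30 had at least 10 CPM in every library. The half-width of the interval of a log2 ratio was between 0.0155 and 0.0976 for the 29 genes other than Nr1h3. A gene was counted as higher or lower when it differed by more than 2-fold after 1 CPM was added to both levels, while single log2 ratios are printed without that addition.

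Cholesterol is built from acetyl-CoA. The mevalonate steps yield isoprenoid diphosphates, of which farnesyl diphosphate is joined to squalene, closed to lanosterol and trimmed to cholesterol. When the membrane of the endoplasmic reticulum is poor in sterol, SCAP carries the precursor of the transcription factor SREBP2 to the Golgi, where it is cleaved, and the released factor switches on most synthesis genes. INSIG proteins hold SCAP back when sterols are plentiful, and oxysterols, as well as the precursor desmosterol, activate the LXR receptors, which switch on genes of sterol export and of membrane lipid remodelling.

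SREBP2 binds sterol regulatory elements, often next to CCAAT boxes bound by the factor NF-Y, so the promoter windows of the genes were read from RefSeq (build GRCm38.p6, from 250 bases before to 50 after the start). The table held 32 windows for 25 of the 30 genes, with none for Fdps, Fdft1, Sqle, Stard4 and Npc1. CCAAT, searched on both strands, was found in 21 of the 25 genes (84.0%), as against 41.1% of the 27025 genes with a window. By window the shares were 65.6% of 32 and 37.4% of 32851. The 4 genes without it were Acat2, Nr1h2, Nr1h3 and Scap. The element TCACNCCAC, also on both strands, occurred in 1 of the 25 genes, Hmgcs1 (4.0%), as against 1.44% of the 27025 genes. By window it was 1 of 32, as against 1.24% of all windows. In Hmgcs1 the matches of the 2 motifs did not overlap. A match is only a run of letters, and these windows say nothing of binding. The sequences below belong to an enzyme gene with the sterol element (Hmgcs1, chr13:119690101-119690350, plus strand), the enzyme gene with the lowest ratio of spheroid to monoculture (Hsd17b7, chr1:169969242-169969455, minus strand), the 2 members counted as higher there (Pmvk, chr3:89454291-89454540, plus strand, and Srebf2, chr15:82147019-82147180, plus strand) and the sterol sensor Insig1 (chr5:28071162-28071362, plus strand). Capitals mark CCAAT or its complement ATTGG and, in Hmgcs1, the element TCACCCCAC, which began 137 bases before the start. Each sequence runs 5′ to 3′ and stops where the RefSeq or the GENCODE gene model begins.
Hmgcs1: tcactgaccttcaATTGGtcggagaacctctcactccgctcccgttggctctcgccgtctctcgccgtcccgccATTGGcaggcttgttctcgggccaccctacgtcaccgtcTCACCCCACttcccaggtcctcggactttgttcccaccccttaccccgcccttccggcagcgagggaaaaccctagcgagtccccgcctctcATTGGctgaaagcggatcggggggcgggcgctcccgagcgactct
Hsd17b7: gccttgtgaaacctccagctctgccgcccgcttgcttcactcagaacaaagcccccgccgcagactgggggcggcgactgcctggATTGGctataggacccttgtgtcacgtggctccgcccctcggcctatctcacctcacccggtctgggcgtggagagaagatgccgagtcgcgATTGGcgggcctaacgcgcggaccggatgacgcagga
Pmvk: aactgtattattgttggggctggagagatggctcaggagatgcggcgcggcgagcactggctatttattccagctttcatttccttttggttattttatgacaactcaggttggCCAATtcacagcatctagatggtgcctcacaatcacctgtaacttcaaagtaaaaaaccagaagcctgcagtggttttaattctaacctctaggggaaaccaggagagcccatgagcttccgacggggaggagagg
Srebf2: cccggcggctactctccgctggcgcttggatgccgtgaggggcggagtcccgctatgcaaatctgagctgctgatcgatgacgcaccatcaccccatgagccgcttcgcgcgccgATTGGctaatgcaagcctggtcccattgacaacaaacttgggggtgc
Insig1: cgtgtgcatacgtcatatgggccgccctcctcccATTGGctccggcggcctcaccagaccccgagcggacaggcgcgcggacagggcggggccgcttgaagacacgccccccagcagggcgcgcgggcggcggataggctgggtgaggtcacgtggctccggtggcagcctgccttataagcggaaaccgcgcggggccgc
CCAAT boxes stood in promoters of genes that were higher in the spheroid (Pmvk, Srebf2) as well as lower (Hsd17b7). Acat2, also counted as lower, had none, and neither had another window of Pmvk. Since 21 of the 25 genes had the box, these cases say nothing of direction.

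**Figure D1:**
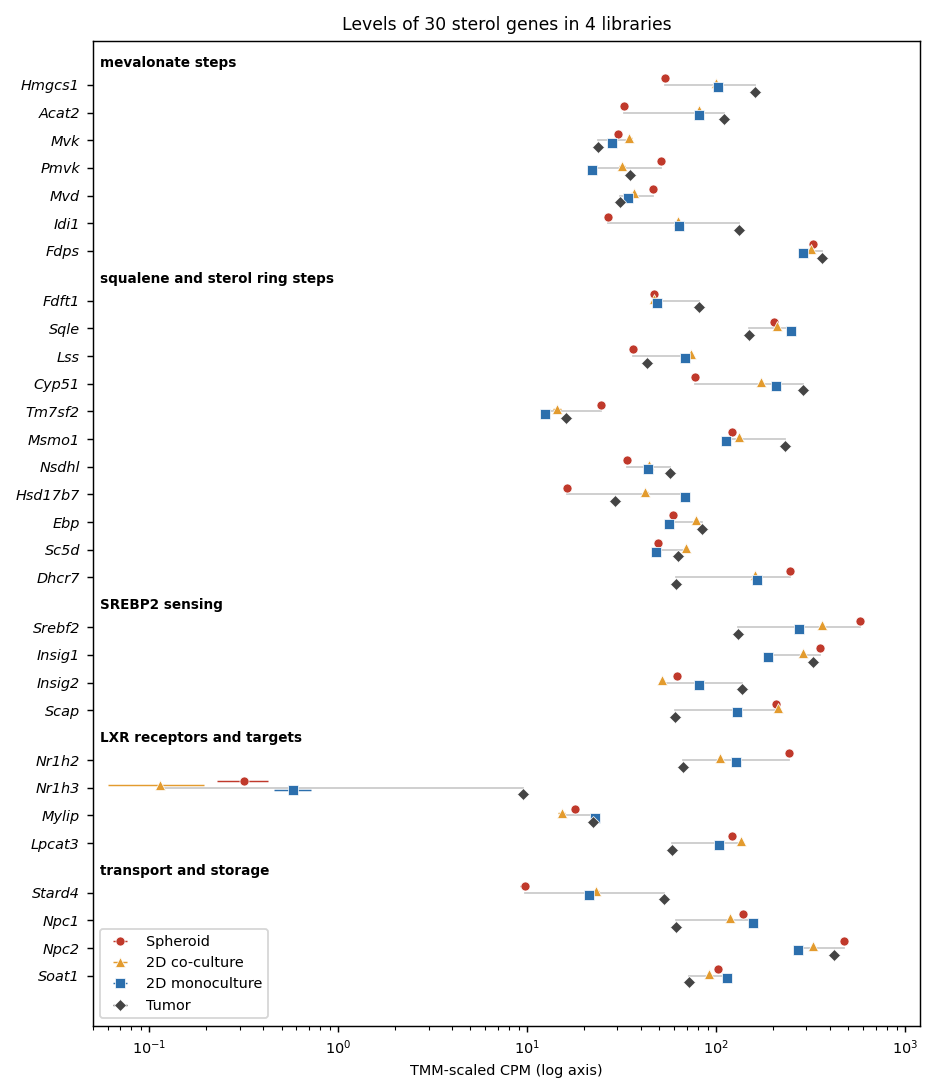
Level of each of the 30 genes in the spheroid (circles), 2D co-culture (triangles), 2D monoculture (squares) and tumor (diamonds) as TMM-scaled CPM on a log axis, 1 library each, with exact binomial 95% intervals where wider than the symbol. Hmgcs1, Acat2, Idi1, Cyp51 and Stard4 share an order with the spheroid lowest and the tumor highest, Srebf2 and Nr1h2 have the tumor lowest and the spheroid highest, and Nr1h3 is below 1 CPM in every culture.

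The 30 genes had no common order across the conditions. The plot of levels shows that the tumor held the highest level of 12 of the 30 genes and the spheroid of 8, while the tumor also held the lowest level of 10 and the spheroid of 9. The 2D co-culture and 2D monoculture were highest for 5 genes each, and lowest for 3 and 8. Of all tested genes, 31.5% were highest in the tumor and 39.3% lowest there, as against 40.0% and 33.3% of the 30 genes. Summed over the 18 synthesis enzymes, the level was 1477 CPM in spheroid cells, 1704 in the flat co-culture, 1695 in the monoculture and 1952 in the tumor. The spheroid was lowest and the tumor highest for this sum under each of the 4 scalings tried, whereas the order of both 2D cultures turned with total counts alone (1641 and 1668 CPM).

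In the mevalonate steps, the uncorrected levels split into a group with the lowest level in the spheroid and a group with levels near or above the monoculture there. Corrected for GC content and length, as described further on, the split was less clear. Mvk (-0.66), Mvd (-0.32) and Fdps (-0.24) then lay below 0 in the spheroid against the monoculture, as did Hmgcs1 (-0.30). Acat2 (-1.30) and Idi1 (-1.002) stayed lower by more than 2-fold, and Pmvk (0.61) stayed above 0. Hmgcs1, the cytosolic synthase that adds an acetyl unit to acetoacetyl-CoA, had 53.7 CPM in spheroid cells, 99.9 in the flat co-culture, 102 in the monoculture and 160.1 in the tumor. Acat2, the thiolase that forms acetoacetyl-CoA, had 32.6, 80.9, 80.6 and 110.1 CPM in the same order. Idi1, the isomerase of isopentenyl diphosphate, had 26.6, 62.7, 63.5 and 131 CPM. For these 3 genes both 2D cultures were level, the spheroid was lower and the tumor was higher. Their log2 ratios of spheroid to monoculture were -0.92 (interval -0.96 to -0.88), -1.31 (-1.36 to -1.26) and -1.26 (-1.31 to -1.20). Those of co-culture to monoculture were -0.02 (-0.06 to 0.01), 0.01 (-0.03 to 0.04) and -0.02 (-0.06 to 0.03), intervals that all include 0. Acat2 has a close paralog, Acat3, and reads could have been split between them. Per length of transcript, Acat2 had 4.47, 4.28, 4.30 and 4.65 times the level of Acat3 in the spheroid, co-culture, monoculture and tumor, a ratio that changed little.

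The kinases and the decarboxylase that follow had another order in the uncorrected levels. Pmvk, phosphomevalonate kinase, had 51.2 CPM in spheroid cells, 31.7 in the flat co-culture, 22.0 in the monoculture and 34.9 in the tumor, and its log2 ratio of spheroid to monoculture was 1.22 (1.16 to 1.28). Mvd, mevalonate diphosphate decarboxylase, had 46.3, 36.6, 34.2 and 30.9 CPM. Mvk, mevalonate kinase, had 30.1, 34.6, 28.2 and 23.6 CPM. Thus, uncorrected, the spheroid held the most Pmvk and Mvd, and the tumor the least Mvd and Mvk. Corrected for GC content and length, the tumor turned to 0.40 (Mvd) and 0.30 (Mvk) against the monoculture. The ratio of spheroid to tumor then turned to -0.87 (Mvd) and -1.10 (Mvk), and that of Pmvk came to 0.010. Fdps, which makes farnesyl diphosphate, had 326, 316, 287 and 362 CPM, and its highest level was 1.26 times its lowest, the smallest spread of the 30 genes. Per length of transcript, Fdps was also the most abundant of the 30 in every library, at 236, 229, 207 and 262 reads per kilobase of transcript at the same scale.

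In the squalene and sterol ring steps, the enzymes with the widest range were Hsd17b7, Dhcr7 and Cyp51. Hsd17b7, a keto-steroid reductase, had 16.3 CPM in spheroid cells, 42.1 in the flat co-culture, 68.6 in the monoculture and 29.0 in the tumor. Dhcr7, the reductase that turns dehydrocholesterol into cholesterol, had 245, 159.6, 164 and 61.4 CPM. Cyp51, the lanosterol demethylase, had 77.1, 173, 207 and 287 CPM. The 3 genes therefore differed in order: Hsd17b7 was highest in the monoculture, Dhcr7 in the spheroid and Cyp51 in the tumor. Their log2 ratios of spheroid to monoculture were -2.07 (-2.14 to -2.01), 0.57 (0.55 to 0.60) and -1.42 (-1.46 to -1.39). The ratio of Hsd17b7 in the co-culture was -0.71 (-0.76 to -0.66), between the monoculture and the spheroid.

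Squalene itself is made and closed by Fdft1, Sqle and Lss. Fdft1, squalene synthase, had 46.9, 46.9, 48.8 and 80.8 CPM in the spheroid, co-culture, monoculture and tumor, with the cultures close together and the tumor above them. Sqle, squalene epoxidase, had 202, 209, 248 and 149 CPM. Lss, which closes the ring to lanosterol, had 36.2, 73.9, 68.4 and 43.2 CPM. Uncorrected, the spheroid and tumor were thus both below the 2D cultures. Corrected for GC content and length, Lss in the tumor turned to 0.14 against the monoculture, while the spheroid was at -0.99. Tm7sf2, a sterol reductase, was highest in the spheroid, at 24.5 CPM as against 14.4, 12.5 and 16.1 CPM. Msmo1, the methylsterol monooxygenase, was highest in the tumor, at 230.1 CPM as against 121, 132 and 112 CPM in the spheroid, co-culture and monoculture. Nsdhl, a sterol dehydrogenase, had 33.6, 44.0, 43.6 and 56.8 CPM. Ebp, a sterol isomerase, had 58.7, 78.2, 56.4 and 83.8 CPM, and Sc5d, a sterol desaturase, had 49.0, 68.9, 48.2 and 62.3 CPM. The log2 ratio of Sc5d in the spheroid to the monoculture was 0.03 (-0.02 to 0.07), an interval that includes 0. Exons of 5 genes overlap those of another counted gene, by 18.3% of exon bases for Fdft1 (with Ctsb), 12.1% for Tm7sf2 (Vps51), 10.2% for Lpcat3 (Emg1), 3.76% for Cyp51 (Akap9) and 3.53% for Lss (4930483K19Rik). No use of strand was stated for the counting, so reads from such stretches cannot be told apart.

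The sensors of the SREBP2 system were, in sum, most abundant in the spheroid, at 1198 CPM, followed by the 2D co-culture at 912, the monoculture at 670.5 and the tumor at 650.0. The order of the monoculture and tumor held with TMM factors only: the tumor was above the monoculture with total counts alone (756 and 659.6 CPM), with upper quartile factors (711 and 616 CPM) and, by a margin under 1 CPM, with DESeq2 size factors. Srebf2, which codes for SREBP2, had 574 CPM in spheroid cells, 362 in the flat co-culture, 274 in the monoculture and 131 in the tumor. Scap, the escort of SREBP2, had 208, 212, 128 and 60.2 CPM. Insig1, itself a known SREBP2 target, had 354, 287, 187 and 323 CPM. All 3 were higher in the spheroid and co-culture than in the monoculture, whereas the tumor was lowest for Srebf2 and Scap only. Corrected for GC content and length, as described further on, Scap in the spheroid turned to -0.070 against the monoculture, and in the tumor Srebf2 came to -0.036 and Scap turned to 0.19. The log2 ratios of spheroid to monoculture were 1.07 (1.05 to 1.08) for Srebf2, 0.69 (0.67 to 0.72) for Scap and 0.92 (0.90 to 0.94) for Insig1. Before the correction, Insig2, whose product also holds SCAP back, went the other way. It had 61.9, 51.7, 81.1 and 136 CPM and a log2 ratio of -0.39 (-0.43 to -0.35). Corrected, that ratio turned to 0.26, as against 1.09 for Insig1 and 0.62 for Srebf2. The level of Insig1 per length was 5.72 and 5.54 times that of Insig2 in the spheroid and co-culture, but 2.30 and 2.37 times in the monoculture and tumor. In the spheroid, where uncorrected Srebf2 was at its highest, the enzyme genes Pmvk, Mvd, Tm7sf2 and Dhcr7 were also at their highest. Hmgcs1, Acat2, Idi1, Lss, Cyp51, Nsdhl and Hsd17b7 were at their lowest there, as was Fdft1 by a margin within counting error. Corrected ratios of spheroid to tumor kept this in part. Mvd (-0.87) and Tm7sf2 (-0.42) fell below the tumor, Pmvk (0.010) was level with it and Hsd17b7 (0.17) was above it. Dhcr7 (1.14) stayed above the tumor, and Hmgcs1, Acat2, Idi1, Lss, Cyp51, Nsdhl and Fdft1 stayed below it.

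In the LXR arm, Nr1h2 (the receptor LXR beta, expressed in most cells) had 244 CPM in spheroid cells, 104 in the flat co-culture, 126 in the monoculture and 66.7 in the tumor. Corrected for GC content and length, its log2 ratio to the monoculture was 0.27 in the spheroid and -0.086 in the tumor. Nr1h3 (LXR alpha, known from macrophages, liver and fat) had 0.316, 0.114, 0.576 and 9.50 CPM, from 43, 13, 82 and 1542 reads. Per length, Nr1h2 was 755, 900.0 and 215 times as abundant as Nr1h3 in the spheroid, co-culture and monoculture, and 6.87 times in the tumor. Mylip, an E3 ligase that marks lipoprotein receptors for degradation and is an LXR target, had 17.8, 15.2, 22.9 and 22.3 CPM, a narrow range with both NIH/3T3 co-cultures at its low end. Lpcat3, an LXR target that remodels phospholipids, had 122, 135, 103 and 58.3 CPM, and the tumor was lowest.

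Among the transport and storage genes, Stard4, a soluble sterol carrier known as an SREBP2 target, had 9.72 CPM in spheroid cells, 23.1 in the flat co-culture, 21.2 in the monoculture and 52.8 in the tumor. This order, with the spheroid lowest and the tumor highest, was also that of Hmgcs1, Acat2 and Idi1. Npc1 and Npc2 hand cholesterol out of the lysosome, the former as a membrane protein and the latter in the lumen. Npc1 had 139, 119, 157 and 61.4 CPM, and Npc2 had 477, 326, 269 and 419 CPM. Per length, Npc2 was thus 5.45, 4.35, 2.72 and 10.8 times as abundant as Npc1 in the spheroid, co-culture, monoculture and tumor, the widest gap being that of the tumor. Soat1, which esterifies cholesterol for storage, had 102, 91.1, 114 and 71.9 CPM.

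**Figure D2:**
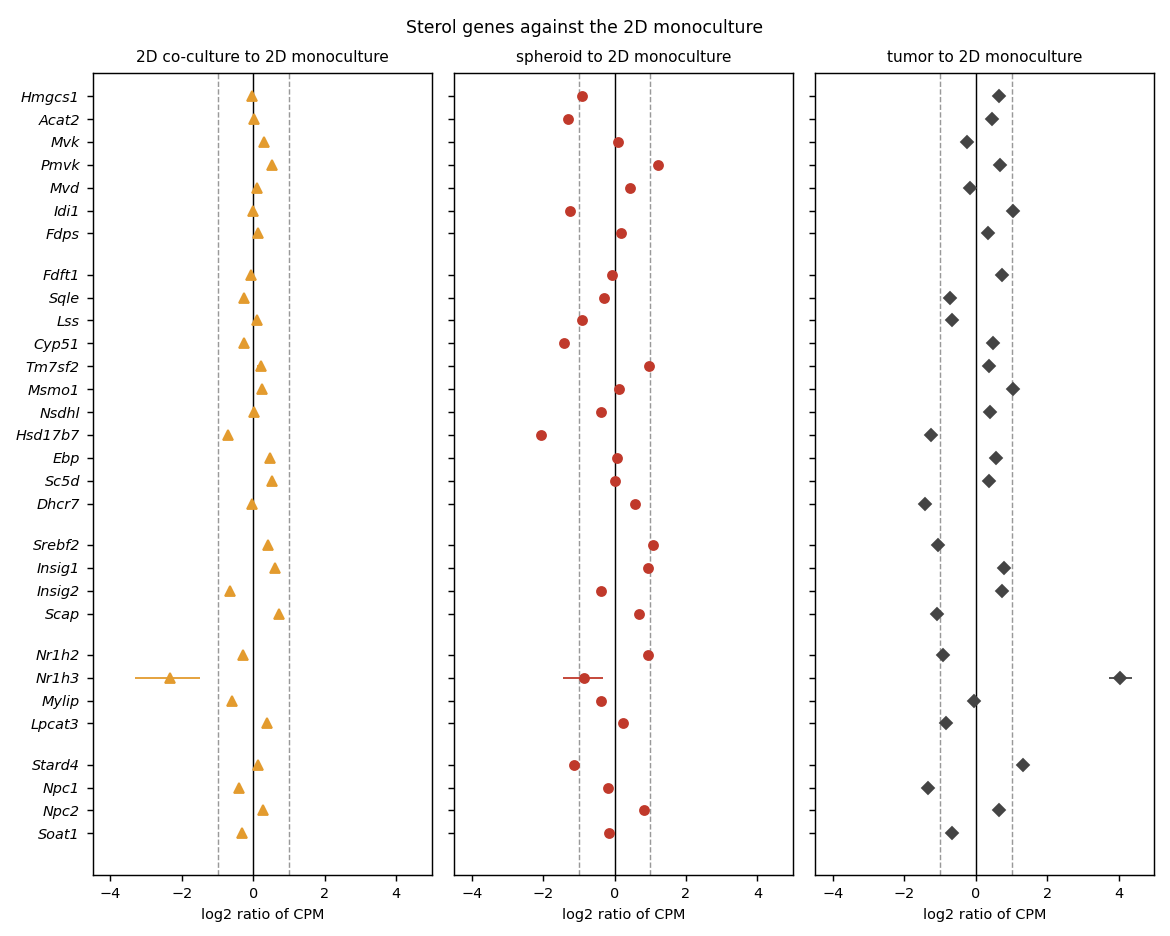
Log2 ratio of CPM of each gene to the 2D monoculture for the 2D co-culture, the spheroid and the tumor, 1 library each, with exact binomial 95% intervals where wider than the symbol and dashed lines at 2-fold. All genes but Nr1h3 lie within 2-fold in the co-culture, whereas in the spheroid the ratios run from -2.07 for Hsd17b7 to 1.22 for Pmvk and in the tumor Nr1h3 reaches 4.04.

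Set against the monoculture, the spheroid had Pmvk and Srebf2 counted as higher by more than 2-fold, 2 of 30 genes, where 11.1% of all tested genes were. It had Acat2, Idi1, Cyp51, Hsd17b7 and Stard4 counted as lower, 5 of 30, where 17.8% of all tested genes were. Both shares were near those of all genes. There were 15 ratios above 0 and 15 below, and their median was -0.02 as against 0.04 over all tested genes. Among the 12795 tested genes, 6846 were above 0 and 5912 below. Among the genes short of 2-fold, Hmgcs1 and Lss were both at -0.92, Tm7sf2 at 0.98 (0.89 to 1.06), Nr1h2 at 0.95 (0.92 to 0.97) and Npc2 at 0.82 (0.81 to 0.84). With total counts alone Srebf2 came to 0.95, which is short of 2-fold, as was Stard4 with upper quartile factors.

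The 2D co-culture kept within 2-fold of the monoculture for every gene but Nr1h3. In the 2D co-culture against the 2D monoculture, 0 of 30 genes were counted as higher and 0 as lower, where 3.8% and 9.46% of all tested genes were. The ratios, with 1 CPM added, ran from -0.69 to 0.72. Scap at 0.72 (0.69 to 0.75) and Insig1 at 0.62 (0.59 to 0.64) were at the top, followed by Pmvk at 0.53, Sc5d at 0.52, Ebp at 0.47 and Srebf2 at 0.40 (0.38 to 0.42). Hsd17b7 at -0.71, Insig2 at -0.65 (-0.69 to -0.60) and Mylip at -0.60 (-0.68 to -0.51) were at the bottom, apart from Nr1h3 at -2.34 (-3.31 to -1.49), which rested on 13 and 82 reads. The co-culture library held 639 CPM of 6 summed fibroblast markers, as against 6.52 CPM in the monoculture and 12.6 CPM in the spheroid. Most of the co-culture sum was Col1a2 at 514 CPM, with Col1a1 at 67.7 and Col3a1 at 53.1. Dcn, Lum and Pdgfra had 1.68, 0.0873 and 2.51 CPM there. In the spheroid Dcn, Lum and Pdgfra were below the monoculture, and Col1a1, Col1a2 and Col3a1 above it. The part of fibroblast reads in these ratios was not tested.

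The spheroid and the 2D co-culture were both grown with NIH/3T3 cells and differed in the form of culture, and the medium of the 2D co-culture was not given in the sources used here. Nr1h2 was counted as higher in the spheroid, at 1.22 (1.19 to 1.25), 1 of 30 genes where 9.46% of all tested genes were. The genes counted as lower were Hsd17b7 at -1.37 (-1.44 to -1.29), Acat2 at -1.31, Stard4 at -1.25 (-1.35 to -1.16), Idi1 at -1.24 (-1.30 to -1.18), Cyp51 at -1.17 (-1.20 to -1.13) and Lss at -1.03 (-1.08 to -0.98). They are 6 of 30, where 8.43% of all tested genes were lower. Of the 18 enzymes, 13 had a ratio below 0 and 5 above, with a median of -0.29, while the median over the 30 genes was -0.01, as was that of all tested genes. Among the 12795 tested genes, 6568 were below 0 and 6211 above. Lss was short of 2-fold with DESeq2 size factors. After the correction for GC content and length, Acat2 (-1.26) and Idi1 (-1.06) alone stayed lower, while Lss (-0.98), Hsd17b7 (-0.91), Cyp51 (-0.80), Stard4 (-0.77) and Nr1h2 (0.69) were short of 2-fold.

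The tumor differed from the 2D monoculture in both directions. Nr1h3 at 4.04 (3.72 to 4.38), Stard4 at 1.32 (1.26 to 1.38), Idi1 at 1.05 (1.01 to 1.08) and Msmo1 at 1.03 (1.01 to 1.06) were counted as higher, 4 of 30 where 15.3% of all tested genes were. Of these, Nr1h3 reached a mean of 1 CPM only through the tumor, so its count as higher there was set by that level. Dhcr7 at -1.42 (-1.45 to -1.39), Npc1 at -1.35 (-1.38 to -1.32), Hsd17b7 at -1.24 (-1.29 to -1.19), Scap at -1.09 (-1.13 to -1.06) and Srebf2 at -1.07 (-1.09 to -1.04) were counted as lower, 5 of 30 where 18.1% were. The median of the 30 ratios was 0.36, as against -0.13 over all tested genes. Above 0 were 12 of the 18 enzymes, as against 5753 of the 12795 tested genes. Fewer cells of a type and less RNA per cell cannot be told apart in such bulk samples. With total counts alone, Hsd17b7 at -0.98, Srebf2 at -0.82 and Scap at -0.84 were short of 2-fold, and with upper quartile factors these 3 were short of it too, so that Dhcr7 and Npc1 alone were counted as lower under both.

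Markers of other cells moved with these tumor values. The 6 macrophage markers (Cd68, Csf1r, Adgre1, Cd14, Lyz2, Ptprc) summed to 1364 CPM in the tumor and to between 9.58 and 29.9 CPM in the cultures. The 6 fibroblast markers summed to 2650 CPM in the tumor, the 5 endothelial markers to 228 CPM, the 5 skeletal muscle markers to 4599 CPM and the 5 adipocyte markers to 796 CPM. In the monoculture those sums were 6.52, 0.344, 3.28 and 0.674 CPM. Each of these 27 markers was higher in the tumor than in the monoculture, where Cd14 and Myh4 had no read, and Lep had no read in any culture. The 6 melanocyte markers summed to 18613 CPM in the tumor and to 9646, 13404 and 15117 CPM in the spheroid, co-culture and monoculture, and each had reads in every library. Single markers differed from the sum. Mitf had 70.3 CPM in the spheroid and 416 in the monoculture, and Mlana 160 and 622. Pmel alone was higher in the spheroid, at 3478 as against 2923 CPM, and had 2208 CPM in the tumor. The part of other cells in the tumor's sterol gene levels was not tested.

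**Figure D3:**
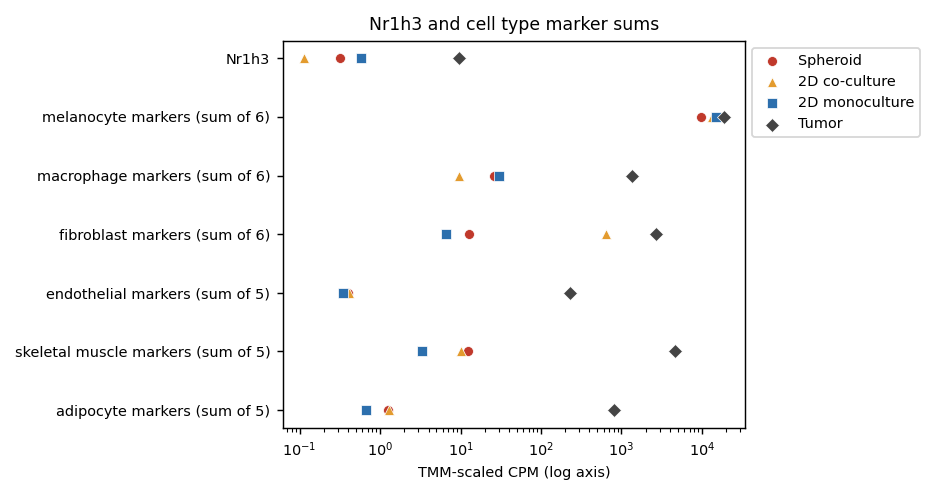
Level of Nr1h3 and summed level of 6 lists of cell type markers in the 4 libraries, as TMM-scaled CPM on a log axis, 1 library each. The tumor lies above the 3 cultures for Nr1h3 and for all 6 sums, with Nr1h3 at 9.50 CPM and the macrophage sum at 1364 CPM, while the melanocyte sum is high in all 4.

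The spheroid and the tumor differed in both directions as well. Srebf2 at 2.13 (2.11 to 2.16), Dhcr7 at 1.99 (1.96 to 2.03), Nr1h2 at 1.87 (1.84 to 1.90), Scap at 1.79 (1.76 to 1.82), Npc1 at 1.17 (1.14 to 1.21) and Lpcat3 at 1.06 (1.02 to 1.10) were counted as higher in the spheroid, 6 of 30 where 26.6% of all tested genes were. Nr1h3 at -4.91 (-5.38 to -4.47), Stard4 at -2.44 (-2.53 to -2.36), Idi1 at -2.30 (-2.35 to -2.25), Cyp51 at -1.89 (-1.92 to -1.86), Acat2 at -1.76 (-1.80 to -1.71), Hmgcs1 at -1.58 (-1.61 to -1.54) and Insig2 at -1.14 (-1.17 to -1.10) were counted as lower, 7 of 30 where 28.0% were. With total counts alone Npc1 and Lpcat3 were short of 2-fold, Lpcat3 also with upper quartile factors. The levels of Insig1 (0.13), Fdps (-0.15) and Npc2 (0.19) were close. The median over the 30 genes was -0.20, as against 0.06 over all tested genes. By CPM with nothing added, the culture closest to the tumor was the co-culture for 13 genes, the monoculture for 12 and the spheroid for 5. Over all tested genes, where 1 CPM was added, the shares were 34.8%, 46.0% and 19.1%.

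The GC content of the transcripts went with many of these ratios. Across the 12533 tested genes with a GC value, the rank correlation (Spearman) of GC content with the ratio of spheroid to monoculture was 0.483, and across the 30 sterol genes it was 0.664. Genes of 1 library pair share depth and scaling, so these are descriptions. Of the 15 sterol genes above their median GC content of 50.5%, 12 had a ratio above 0, and of the other 15 only 3 had. Idi1 (41.9% GC), Hmgcs1 (43.1%), Hsd17b7 (43.9%), Stard4 (43.9%) and Cyp51 (46.2%) were among the genes low in the spheroid, while Pmvk (57.0%), Srebf2 (57.9%), Scap (59.1%) and Nr1h2 (60.6%) were among those high there. For spheroid to co-culture the correlations were 0.402 and 0.608, for co-culture to monoculture 0.211 and 0.249, for tumor to monoculture -0.383 and -0.368, and for spheroid to tumor 0.539 and 0.619.

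When the median ratio of genes of like GC content and length was removed from each ratio, several of the differences above shrank and others grew (values with 1 CPM added). The median of the 18 enzymes moved from -0.02 to -0.28 for spheroid to monoculture and from -0.42 to -0.54 for spheroid to tumor. For tumor to monoculture it moved from 0.37 to 0.39. In the spheroid against the monoculture, Acat2 (-1.30), Hsd17b7 (-1.23) and Idi1 (-1.002) remained lower by more than 2-fold, whereas Cyp51 (-0.66) and Stard4 (-0.27) did not. Hmgcs1, short of 2-fold before the correction, came to -0.30 and Scap turned from 0.69 to -0.070. Srebf2 (0.62) and Pmvk (0.61) fell short of 2-fold, while Insig1 came to 1.09 and Soat1 turned from -0.16 to 1.004. In the tumor against the monoculture, Nr1h3 (3.41) and Stard4 (1.11) stayed higher, with Fdft1 and Npc2 now past 2-fold too, and Hsd17b7 (-1.39) stayed lower. Idi1 (0.71), Msmo1 (0.62), Dhcr7 (-0.87) and Npc1 (-0.45) no longer passed it, and Srebf2 came to -0.036 and Scap to 0.19. In the spheroid against the tumor, Dhcr7 (1.14), Idi1 (-1.43), Acat2, Nr1h3 and Stard4 stayed beyond 2-fold, and Srebf2 (0.58), Nr1h2 (0.34), Scap (-0.074), Npc1 (0.76), Lpcat3 (0.75), Cyp51 (-0.91), Hmgcs1 (-0.36) and Insig2 (-0.34) did not. Soat1 (1.84), Mvk (-1.10) and Lss (-1.01) passed 2-fold only with the correction. The sign of 8 of the 30 ratios changed in spheroid to monoculture, of 6 in tumor to monoculture and of 7 in spheroid to tumor.

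**Figure D4:**
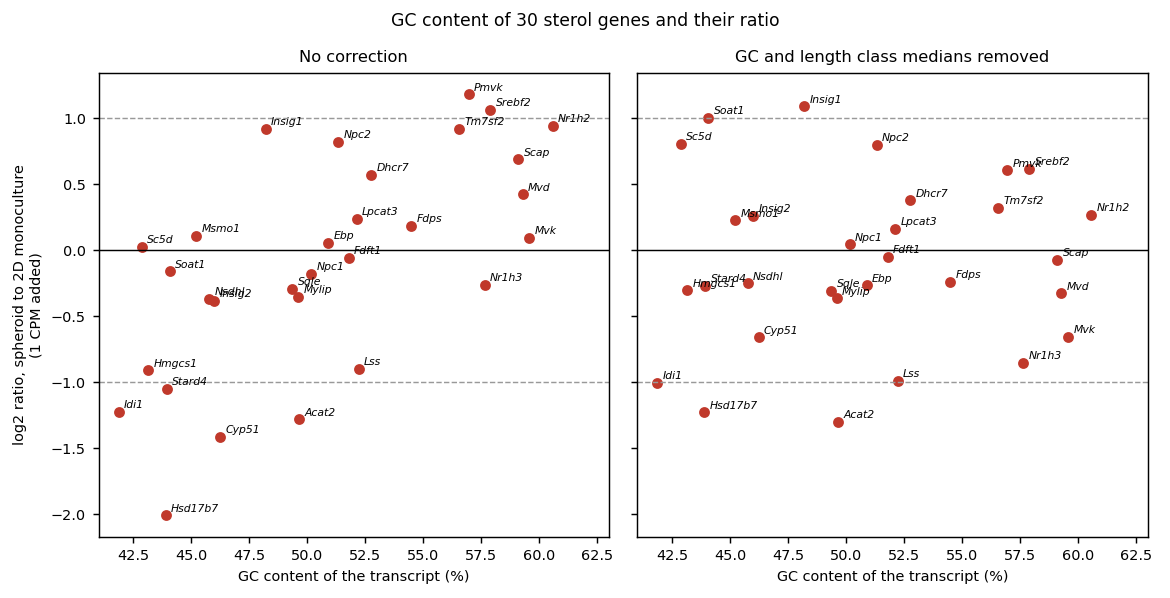
GC content (%) of the longest coding transcript of each of the 30 genes against its log2 ratio of spheroid to 2D monoculture with 1 CPM added, as measured (left) and with the median of genes of like GC content and length removed (right), with dashed lines at 2-fold. Genes with a low GC content lie lower on the left, where the rank correlation is 0.664, and on the right Acat2, Hsd17b7 and Idi1 remain below the lower line.

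A further 42 genes of neighbouring pathways were read in the same way, against the same shares of all tested genes (11.1% higher and 17.8% lower in the spheroid, 15.3% and 18.1% in the tumor, each against the monoculture). Of 8 genes of SREBP processing, none was counted as higher or lower in the spheroid against the monoculture. Among 5 genes of LXR partners and export, the spheroid had 1 higher and 1 lower. Pltp, the phospholipid transfer protein, had 40.2 CPM in spheroid cells, 21.3 in the co-culture, 13.3 in the monoculture and 42.2 in the tumor. Abca1, the sterol exporter and a well known LXR target, had 3.19, 11.2, 65.5 and 51.6 CPM, so the cultures with fibroblasts were lowest. In the tumor 2 of the 5 were higher and 2 lower. Abcg1, another exporter, had 12.7 CPM and 2062 reads in the tumor and no read in the monoculture, which is at least 603 times the limit of 3 reads there. Abcg1 reached the mean of 1 CPM only through the tumor, so its count as higher there was set by the filter. Rxra, the partner of the LXR receptors, had 54.6 CPM in the tumor as against 170 CPM in the monoculture.

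Of 12 genes of uptake, lysosome and sterol transport at the endoplasmic reticulum, 11 were tested, and the spheroid had 3 higher and 3 lower. Nceh1, a hydrolase of cholesterol esters, had 39.1 CPM in the spheroid as against 171 CPM in the monoculture. Stard5, a sterol carrier, had 58.2 and 17.9 CPM and Gramd1a, a sterol transporter between membranes, had 318 and 109 CPM in the same pair. In the tumor 1 was higher and 2 lower, with Vldlr, a lipoprotein receptor, at 13.5 CPM as against 4.88 CPM, Gramd1b at 10.6 as against 52.9 CPM, and Lipa, the lysosomal acid lipase, at 105 as against 229 CPM. Of 4 oxysterol enzymes, 3 were tested. Cyp46a1, a cholesterol hydroxylase, had 6.08 CPM in the spheroid and 0.384, 0.428 and 0.123 CPM in the co-culture, monoculture and tumor. In the tumor 2 were higher, and both were close to absent from the cultures: Ch25h had 4.81 CPM from 781 reads and no read in the monoculture, and Cyp27a1 had 4.73 CPM as against 0.0281 CPM. Both reached the mean of 1 CPM only through the tumor, so their count as higher there was set by the filter. Of 13 genes of the isoprenoid branches, none was higher and 3 were lower in the spheroid, where Pggt1b, Pdss1 and Fnta had 5.46, 4.74 and 29.1 CPM as against 16.7, 12.5 and 71.2 CPM in the monoculture. None of the 13 was counted in either direction in the tumor.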

How the data were processed

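Raw read counts per gene symbol, as deposited by the authors, were used for 4 libraries of 2 x 150 base paired reads. The submitters' processing notes name Trimmomatic, STAR, featureCounts and the build mm10, without versions or roles, and the strand setting was not given in the sources used here. No column was left out. The study's methods give 3 samples for RNA extraction, whereas the labels give 1 library per condition, so no p-value, SD or paired test was computed.

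TMM factors (edgeR 4.0.16, R 4.3.3) came to 0.908 (spheroid), 0.963 (co-culture), 0.984 (monoculture) and 1.16 (tumor). Genes were kept where their mean by total counts reached 1 CPM, and counts over 2-fold used log2(CPM + 1), which understates the change of low genes. Intervals were exact binomial intervals on the reads of 2 libraries (scipy 1.17.1). They cover counting error only, since each condition had 1 library. The reads carried no molecular identifiers, so copies of a molecule could not be told apart and the intervals may be too narrow. A count of 0 was read against a limit of 3 reads, which was between 0.0185 and 0.0262 CPM. GC content and length came from the longest coding transcript of each gene in GENCODE M21 (GRCm38, the assembly of mm10), and 98.0% of tested genes had a value. The correction removed the median ratio of 10 classes of GC content by 10 of length. Promoter windows were those of RefSeq. Genes were matched by symbol, and tables were handled in Python 3.11.15 with numpy 2.4.6 and pandas 2.3.3 and drawn with matplotlib 3.10.9. The ratios, intervals and correction were tested on simulated data.

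The 30 genes, the pathway lists and the marker lists were chosen with earlier results of these data known. All 30 genes are named, and from each other list the genes over 2-fold in the spheroid or the tumor against the monoculture, at most 3 per list and comparison, apart from a gene that is not reported here. Acat3, Ctsb and other overlapping or paralogous genes were named outside this rule. Alternatives were DESeq2 1.42.0 size factors, total counts alone, upper quartile factors, other pseudocounts, filters and folds, and the correction for GC content and length.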

Additional observations from a re-analysis of the deposited data

How the results depend on the processing

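No paired analysis was possible because there was only 1 library for each condition. Of the counts and medians recomputed, 134 values stayed within 1.5-fold of those reported, and 20 counts of genes did not. Single genes were less steady. Of their recomputed log2 ratios, 603 stayed within the counting interval, 385 moved beyond it and 2 that were past 2-fold changed sign. The correction for GC content and length changed the sign of 31 of 150 such ratios and the side of 2-fold of 30. For the spheroid against the monoculture, 1 gene was higher with total counts alone, 5 with upper quartile factors and 7 at over 1.5-fold, instead of 2, and 3 instead of 5 were lower after the correction for GC content and length. For the co-culture against the monoculture, instead of 0, 1 gene (Nr1h3) was lower with a pseudocount of 0.1 CPM and 1 with none, and 2 were higher and 2 lower at over 1.5-fold. For the spheroid against the co-culture, instead of 1 gene, 2 were higher without a pseudocount, 5 at over 1.5-fold and 0 after the correction, which left 2 instead of 6 lower. For the tumor against the monoculture, instead of 5, 2 genes were lower with total counts alone, 2 with upper quartile factors, 10 at over 1.5-fold and 1 after the correction, and 10 instead of 4 were higher at over 1.5-fold. For the spheroid against the tumor, 11 instead of 7 were lower with total counts alone and 11 at over 1.5-fold, and 2 instead of 6 were higher after the correction. Scap turned direction under the correction, to -0.070 for the spheroid and 0.19 for the tumor against the monoculture and to -0.074 for the spheroid against the tumor. Cause was not tested for any of these. With total counts alone, the median over all tested genes moved from -0.13 to 0.09 for the tumor against the monoculture and from 0.06 to -0.27 for the spheroid against the tumor, and the median of the 30 genes minus that of all genes moved from 0.49 to 0.50 and from -0.26 to -0.28. TMM factors of the 3 cultures alone and a filter of at least 1 CPM in the monoculture were added after seeing the data and moved none of the counts by over 1.5-fold. No depth limit bears on the 29 genes other than Nr1h3, while the absence of replicates limits every comparison.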
